A study of Mus musculus with 6 samples.

Results

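A set of 10 long noncoding RNAs was described in RM-1, a line of mouse prostate cancer cells, with and without forced expression of the basic helix-loop-helix transcription factor Bhlhe22. They were chosen by name and are the rows of the deposited gene table called Malat1, Neat1, Gas5, Snhg1, Snhg3, Snhg5, Snhg6, Snhg8, Snhg12 and Epb41l4aos, 10 of 55487 rows. The control cells carried a blank vector lentivirus and the other cells a lentivirus for overexpression of Bhlhe22, with 3 RNA sequencing libraries in each group, grown at 37°C in 5% CO2. The study as a whole concerns Bhlhe22, as its title says, and myeloid-derived suppressor cells in bone metastases of prostate cancer. The labels give no passage, clone or time after infection, and do not say whether the libraries came from separate cultures, so the p-values measure a spread between libraries that may be technical.

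Small nucleolar RNAs (snoRNAs) guide the chemical modification of other RNAs, mostly ribosomal RNA, and in mammals most are cut out of the introns of host genes. The box C/D class guides ribose methylation and the box H/ACA class guides pseudouridylation. In several hosts, Gas5 and Snhg1 among them, the spliced RNA left after the introns are removed has no long reading frame, is engaged by ribosomes and is degraded by nonsense-mediated decay. Host genes often start in a pyrimidine tract called a 5′ terminal oligopyrimidine (TOP) motif, which they share with ribosomal protein genes. Malat1 and Neat1 are unlike the hosts: both stay in the nucleus, Malat1 at nuclear speckles, where splicing factors gather, and Neat1 as the scaffold of paraspeckles.

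In the Bhlhe22 cells 5 of the 10 RNAs were higher: the snoRNA hosts Snhg12, Snhg5, Snhg1 and Gas5, and the paraspeckle scaffold Neat1. None was lower in the same test, and Snhg3, Snhg6, Snhg8, Epb41l4aos and Malat1 did not pass it. The test was edgeR's quasi-likelihood test with Benjamini-Hochberg adjustment over 14663 genes at a threshold of 0.05, and all 10 RNAs passed its filter on low counts. Over all genes tested 19.6% were called, 10.4% higher and 9.28% lower. At an unadjusted p under 0.05, 6 of the 10 were higher and 1, Snhg3, was lower. The share of all genes at that unadjusted p is not given here. DESeq2 called 5 of the 10 higher and 1 lower, beside 1749 higher and 1624 lower over all genes. The median log2 fold change was 0.52 over the 10 RNAs, 0.56 over the 8 snoRNA hosts and 0.01 over all genes tested. Leaving out 1 library changed the count of RNAs called higher to 2 without any single vector library, 6 without Bhlhe22 replicate 1, 3 without Bhlhe22 replicate 2 and 5 without Bhlhe22 replicate 3. Over all genes the count called higher moved too, from 1520 to 715, 781 and 794 without vector replicates 1 to 3. It was 2345, 908 and 1182 without Bhlhe22 replicates 1 to 3.

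The libraries held between 15464709 and 25129552 counts. The Bhlhe22 gene had 0 counts in each vector library and 8706 to 17995 in the Bhlhe22 libraries. A single library stood apart: Bhlhe22 replicate 1 correlated with the other Bhlhe22 libraries at 0.9793 and 0.9769 across 14663 genes, against 0.987 between those others and 0.988 to 0.9885 among the vector libraries. Its short genes read high and its long genes low. The median log2 difference from the mean of Bhlhe22 replicates 2 and 3 ran from 0.361 in 1551 genes under 1 kb of exon to -0.309 in 2216 genes over 8 kb, where the same median for vector replicate 1 ran from 0.03 to -0.014. The median exon length of the 10 RNAs was 2066 bases, and that of all genes tested was 3857. Each of the 10 RNAs is therefore given with and without Bhlhe22 replicate 1. Of 11 markers of prostate and epithelial cells, the keratins Krt8 and Krt18 were abundant, at 757 ± 14.5 and 665 ± 24.0 CPM (counts scaled to library size) in vector and 545 ± 34.0 and 665 ± 80.1 CPM in Bhlhe22 cells (SD, n = 3 each), while Hoxb13, Pbsn and Krt5 were at 0. Krt8 was lower in Bhlhe22 cells (log2 fold change -0.47, edgeR adjusted p = 0.0047), and the list summed to 1380 to 1450 CPM in vector and 1130 to 1340 CPM in Bhlhe22 cells, without overlap; its part in the results below was not tested. Of 7 immune markers 5 were at 0, and their sum was 0 to 0.291 CPM in vector and 0.0516 to 0.197 CPM in Bhlhe22 cells. The mesenchymal list summed to 1960 to 2120 CPM in vector and 1780 to 1860 CPM in Bhlhe22 cells, also without overlap. In it Vim (log2 fold change -0.33, edgeR adjusted p = 0.023) and Col1a2 (-2.12, 0.0097, with 39 counts in total) were lower. Pdgfrb was higher (0.53, edgeR adjusted p = 0.015), and Col1a1 and Fn1 were not called. The part of this list was not tested either. The endothelial list summed to 3.74 to 4.81 CPM in vector and 3.02 to 4.18 CPM in Bhlhe22 cells, with overlap. These are bulk libraries, in which fewer cells with an RNA and less of it per cell cannot be told apart.

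The hosted snoRNAs were scanned for the box letters of their classes. One is printed for each of 6 hosts, on GRCm38 and as transcribed, from the GENCODE M21 transcripts. Capitals mark TGATGA within the first 20 bases and CTGA within the last 20, the C and D boxes, or, in Snora24, the ACA near the 3′ end of the H/ACA class. Snord47 lies in Gas5 at chr1:161038082-161038158 on the plus strand, and Gm25855 in Snhg1 at chr19:8723993-8724064 on the plus strand. Snord50a lies in Snhg5 at chr9:88521529-88521600 on the minus strand, and Snord87 in Snhg6 at chr1:9942463-9942549 on the minus strand. Snord99 lies in Snhg12 at chr4:132310691-132310764 on the plus strand, and Snora24 in Snhg8 at chr3:123507937-123508066 on the minus strand.
Snord47: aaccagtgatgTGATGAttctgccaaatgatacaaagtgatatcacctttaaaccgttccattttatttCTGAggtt
Gm25855: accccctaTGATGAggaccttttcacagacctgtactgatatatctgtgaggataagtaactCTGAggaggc
Snord50a: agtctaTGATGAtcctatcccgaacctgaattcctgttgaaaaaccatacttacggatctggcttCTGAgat
Snord87: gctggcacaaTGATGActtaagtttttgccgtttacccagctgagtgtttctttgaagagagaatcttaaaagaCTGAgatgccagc
Snord99: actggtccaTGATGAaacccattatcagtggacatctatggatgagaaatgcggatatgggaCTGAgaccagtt
Snora24: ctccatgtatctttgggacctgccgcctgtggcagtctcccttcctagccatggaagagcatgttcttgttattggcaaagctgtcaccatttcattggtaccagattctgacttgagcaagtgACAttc
Of 29 snoRNA rows scanned inside the hosts, with Epb41l4aos left out, 17 held both C and D box letters in these windows, 6 held the ACA and 6 held neither. The scan took exact letters, searched for no H box and had no background rate, so it does not settle the class of a row. Snord78, Snord22 and Snora44 were among those with neither.

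The starts of the RNAs are shown next because a pyrimidine tract at the start is the known mark of many hosts. Each stretch runs from 60 bases before to 40 after the first transcribed base in RefSeq on GRCm38.p6. Capitals mark the longest run of C and T between 10 bases before and 20 after the start. RefSeq windows were used for 7 of the 10 RNAs, and Epb41l4aos was left out of the search. Gas5 has a pair of starts, of which the downstream one is printed. The stretches are chr1:161035106-161035205 on the plus strand for Gas5, chr19:8723427-8723526 on the plus strand for Snhg1 and chr4:132308618-132308717 on the plus strand for Snhg12. Those on the minus strand are chr9:88522858-88522957 for Snhg5, chr3:123508297-123508396 for Snhg8, chr4:132353647-132353746 for Snhg3 and chr19:5802633-5802732 for Malat1.
Gas5: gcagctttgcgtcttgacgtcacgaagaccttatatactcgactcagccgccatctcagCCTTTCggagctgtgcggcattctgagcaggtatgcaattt
Snhg1: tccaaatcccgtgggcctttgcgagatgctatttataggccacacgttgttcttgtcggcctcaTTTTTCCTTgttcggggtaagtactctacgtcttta
Snhg12: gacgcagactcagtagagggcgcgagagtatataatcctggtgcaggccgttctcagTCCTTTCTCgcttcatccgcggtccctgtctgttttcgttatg
Snhg5: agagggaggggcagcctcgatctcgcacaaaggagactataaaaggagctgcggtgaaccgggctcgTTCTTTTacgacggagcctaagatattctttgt
Snhg8: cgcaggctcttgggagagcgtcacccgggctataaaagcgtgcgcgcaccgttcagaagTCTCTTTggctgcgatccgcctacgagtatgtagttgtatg
Snhg3: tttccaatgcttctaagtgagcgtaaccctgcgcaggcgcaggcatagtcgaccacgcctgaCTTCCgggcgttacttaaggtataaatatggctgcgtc
Malat1: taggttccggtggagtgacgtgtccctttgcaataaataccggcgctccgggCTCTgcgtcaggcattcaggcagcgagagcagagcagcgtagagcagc
The run was 9 bases in Snhg1 and Snhg12, 7 in Snhg5 and Snhg8, 6 at this Gas5 start, 5 in Snhg3 and 4 in Malat1. It covered the first transcribed base of RefSeq only in Snhg12, Snhg8 and this Gas5 start. In Snhg1 it began at transcribed base 5, in Snhg5 at base 8 and in Snhg3 at base 3. In Malat1 it began 8 bases before the start and ended before it. These positions hold for the RefSeq starts alone. In GENCODE M21 the outermost 5′ end lies elsewhere for Gas5, Snhg1, Snhg12, Snhg5 and Snhg8. For Snhg1 it is base 8723475 against 8723487 in RefSeq. For Snhg3 and Malat1 it is the same as in RefSeq. Where a run lies relative to the start therefore depends on the annotation. Over 32851 promoter windows, 7.11% held a run of 9 or more, 17.9% one of 7 or more, 28.7% one of 6 or more and 68.6% one of 4 or more. The other start of Gas5 had a run of 3. The motifs were chosen with the sequences in view, and each reads the same on both strands. The letters TATA stood 45 to 15 bases before the start in 5 of these 8 windows, those of Snhg1, Snhg12, Snhg5, Snhg8 and the downstream Gas5 start, and in 6.72% of all windows. The CREB-type site TGACGTCA stood in 1 of 8, the downstream Gas5 window, against 1.79% of all windows, searched over all 300 bases. CANNTG, the letters basic helix-loop-helix factors bind, stood in 3 of 8 windows, those of Snhg12, Malat1 and the upstream Gas5 start, against 72.3% of all, and CACGTG, a form of it, in 0 of 8, against 7.15% of all.

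Snhg12, which hosts H/ACA snoRNAs and the C/D snoRNA Snord99, had the largest fold change of the 10. Its level was 13.3, 14.2 and 12.7 CPM in vector replicates 1 to 3 and 46.6, 30.9 and 28.9 CPM in Bhlhe22 replicates 1 to 3. The groups lay far apart, and Bhlhe22 replicate 1 was the highest of all. The means were 13.4 ± 0.753 and 35.5 ± 9.68 CPM (SD, n = 3 each), a log2 fold change of 1.40 (SE 0.19, edgeR adjusted p = 0.00294). Without Bhlhe22 replicate 1 the log2 fold change was 1.15 (edgeR adjusted p = 8.4e-05), and Snhg12 was called in each of the 15 alternative fits. Snhg12 (ENSMUSG00000086290) is a lincRNA row on the plus strand at chr4:132308623-132311024.

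Snhg5, the host of Snord50a and Snord50b, was also higher. Its level was 27.0, 25.8 and 20.5 CPM in vector and 50.7, 47.8 and 37.2 CPM in Bhlhe22 cells. The groups did not overlap, and within each group replicate 3 was the lowest. Its means of 24.4 ± 3.46 and 45.2 ± 7.09 CPM (SD, n = 3 each) gave a log2 fold change of 0.89 (SE 0.15, edgeR adjusted p = 0.00817), and 0.79 (edgeR adjusted p = 0.00929) without Bhlhe22 replicate 1. It too was called in all 15 alternatives. The row (ENSMUSG00000097195, minus strand) spans chr9:88495268-88523562 in the table, a longer model than the one at chr9:88521050-88522929 in GENCODE M21.

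Snhg1, which holds 8 snoRNA rows, was at 79.6, 89.5 and 69.3 CPM in vector and 191, 118 and 121 CPM in Bhlhe22 cells. Each Bhlhe22 library lay above every vector library, with replicate 1 well above the other two. The means were 79.5 ± 10.1 and 143 ± 41.2 CPM (SD, n = 3 each), a log2 fold change of 0.85 (SE 0.20, edgeR adjusted p = 0.0265). Without Bhlhe22 replicate 1 it was 0.58 (edgeR adjusted p = 0.00733). The call was lost without vector replicate 1, 2 or 3, at edgeR adjusted p = 0.0903, 0.0614 and 0.103. Snhg1 (ENSMUSG00000108414) lies on the plus strand at chr19:8723475-8726443.

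Gas5, named growth arrest specific 5 for its rise in arrested cells and host to 10 snoRNA rows here, was nearly level in vector cells, at 110, 109 and 105 CPM. In Bhlhe22 cells it was at 213, 163 and 140 CPM. The groups did not overlap, and the spread was larger in the Bhlhe22 group, with replicate 1 highest. The means were 108 ± 2.59 and 172 ± 37.5 CPM (SD, n = 3 each), a log2 fold change of 0.67 (SE 0.15, edgeR adjusted p = 0.02), and 0.48 (edgeR adjusted p = 0.00168) without Bhlhe22 replicate 1. The call was lost without vector replicate 1, 2 or 3 or without Bhlhe22 replicate 2, at edgeR adjusted p = 0.0744, 0.0751, 0.0832 and 0.0505. Gas5 (ENSMUSG00000053332) lies on the plus strand at chr1:161034422-161038539.

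Neat1 was the nuclear RNA that rose. Its level was 65.6, 64.2 and 76.0 CPM in vector and 125, 95.8 and 88.5 CPM in Bhlhe22 cells. The groups did not overlap, and Bhlhe22 replicate 1 was again the highest. The means were 68.6 ± 6.44 and 103 ± 19.1 CPM (SD, n = 3 each), a log2 fold change of 0.59 (SE 0.14, edgeR adjusted p = 0.0273), and 0.42 (edgeR adjusted p = 0.00704) without Bhlhe22 replicate 1. The call was lost without vector replicate 1, 2 or 3 or without Bhlhe22 replicate 2, at edgeR adjusted p = 0.104, 0.108, 0.0585 and 0.0558. It was also lost when the length and GC trend of each library was removed, at a log2 fold change of 0.70 (edgeR adjusted p = 0.172; range over all alternatives 0.0025 to 0.17). Neat1 (ENSMUSG00000092274) lies on the minus strand at chr19:5824708-5845478. A small row nested in it, Gm27505, 731 bases from its 5′ end, had 88, 96 and 107 counts in vector and 111, 153 and 159 in Bhlhe22 cells (log2 fold change 0.56, edgeR adjusted p = 0.026). Its call was lost without vector replicate 1, 2 or 3 or without Bhlhe22 replicate 2, at edgeR adjusted p = 0.089, 0.096, 0.077 and 0.092.

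Malat1 did not pass the test. Its level was 269, 251 and 324 CPM in vector and 204, 305 and 329 CPM in Bhlhe22 cells. The groups overlapped, and Bhlhe22 replicate 1 was the lowest of the 6 libraries, where in the other 9 RNAs it was the highest of its own group. The means were 282 ± 38.2 and 280 ± 66.7 CPM (SD, n = 3 each), with a log2 fold change of -0.01 (SE 0.19, edgeR adjusted p = 0.984) and of 0.17 (edgeR adjusted p = 0.364) without Bhlhe22 replicate 1. Malat1 (ENSMUSG00000092341) is a single-exon row on the minus strand at chr19:5795690-5802672, on the same chromosome and strand as Neat1.

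Snhg3, the host of the H/ACA snoRNAs Snora73a and Snora73b, had the only fold change below 0 among the snoRNA hosts. It was at 8.64, 7.72 and 6.50 CPM in vector and 6.18, 4.60 and 4.30 CPM in Bhlhe22 cells. The groups did not overlap, though vector replicate 3 and Bhlhe22 replicate 1 lay close. The means were 7.62 ± 1.07 and 5.02 ± 1.01 CPM (SD, n = 3 each), a log2 fold change of -0.61 (SE 0.18, edgeR adjusted p = 0.0587). Without Bhlhe22 replicate 1 it was -0.78 and passed (edgeR adjusted p = 0.00835). It also passed with DESeq2 (adjusted p = 0.0297) and with limma-voom (adjusted p = 0.0489), and over all alternatives the adjusted p ran from 0.0083 to 0.18. Snhg3 (ENSMUSG00000085241) lies on the minus strand at chr4:132348014-132353686 and had 89 to 159 counts per library. Its exons share 71.5% of their length with the antisense row Gm17300 and 13.7% with Rcc1 on the same strand. The sources used here do not give the strandedness of counting, so it is not known whether reads of Snhg3 and Gm17300 were told apart. The row of Gm17300 had a log2 fold change of -0.51 (edgeR adjusted p = 0.075).

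Snhg6, the host of Snord87, did not pass either, although its groups were apart. It was at 51.1, 47.1 and 50.8 CPM in vector and 85.2, 56.9 and 58.1 CPM in Bhlhe22 cells. Bhlhe22 replicate 1 stood far above the rest, and replicates 2 and 3 only just above the vector libraries. The log2 fold change was 0.42 (SE 0.16, edgeR adjusted p = 0.111), and without Bhlhe22 replicate 1 it was 0.20 and passed (edgeR adjusted p = 0.0458; range over all alternatives 0.021 to 0.27). Snhg6 (ENSMUSG00000098234) lies on the minus strand at chr1:9941959-9944118.

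Snhg8, the host of Snora24, was at 23.6, 21.7 and 22.6 CPM in vector and 46.4, 23.4 and 20.1 CPM in Bhlhe22 cells. Only Bhlhe22 replicate 1 was high, and replicates 2 and 3 lay within or just below the vector range. The log2 fold change was 0.40 (SE 0.30, edgeR adjusted p = 0.397) and -0.06 (edgeR adjusted p = 0.675) without that library. Snhg8 (ENSMUSG00000104960) lies on the minus strand at chr3:123507552-123508404.

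Epb41l4aos, a lincRNA row named as antisense to Epb41l4a and holding 1 snoRNA row, did not pass. It was at 11.7, 12.9 and 13.1 CPM in vector and 24.5, 14.6 and 12.9 CPM in Bhlhe22 cells. Bhlhe22 replicate 1 was high, replicate 2 lay just above the vector range and replicate 3 inside it. The log2 fold change was 0.46 (SE 0.24, edgeR adjusted p = 0.224), and 0.12 (edgeR adjusted p = 0.438) without Bhlhe22 replicate 1. Epb41l4aos (ENSMUSG00000087590) lies on the plus strand at chr18:33794892-33795986.

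**Figure D1:**
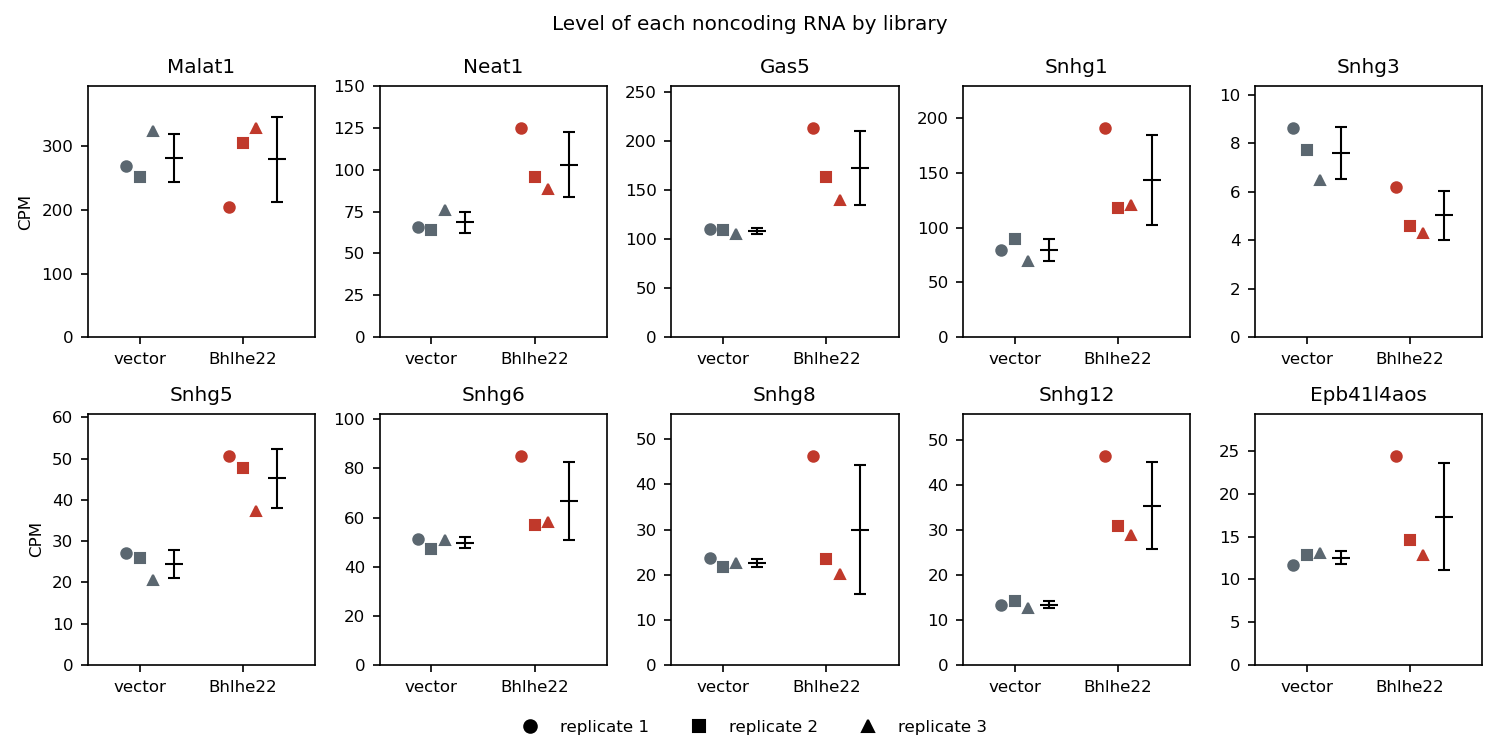
Level of each of the 10 noncoding RNAs in CPM (each axis from 0) in every vector library (grey) and Bhlhe22 library (red), with the mark showing the replicate and bars giving the mean ± SD (n = 3). Bhlhe22 replicate 1 is the highest Bhlhe22 library in 9 of the 10 panels and the lowest in Malat1, and the groups do not overlap in 7 panels.

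In 7 of the 10 RNAs the CPM ranges of the groups did not overlap, 6 higher and 1 lower in Bhlhe22 cells, where 40.8% of all genes tested had groups that did not overlap. The plot of levels by library shows the wider spread of the Bhlhe22 group: the coefficient of variation was 2.39 to 14.2% in vector and 15.7 to 47.8% in Bhlhe22 cells over the 10 RNAs. Bhlhe22 replicate 1 was the highest of its group in 9 of the 10, against 41.7% of all genes tested. Its ratio to the mean of replicates 2 and 3 was 1.19 in Snhg5, 1.35 in Neat1, 1.60 in Snhg1, 2.13 in Snhg8 and 0.642 in Malat1. Without that library 7 of the 10 were called, Gas5, Snhg1, Snhg5, Snhg6, Snhg12 and Neat1 higher and Snhg3 lower, where 31.3% of all 14945 genes tested were called. With the length and GC trend of each library removed 6 were called, Gas5, Snhg1, Snhg5, Snhg6 and Snhg12 higher and Snhg3 lower, where 28.0% of 14637 genes were called. This last alternative was chosen after the data were seen.

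**Figure D2:**
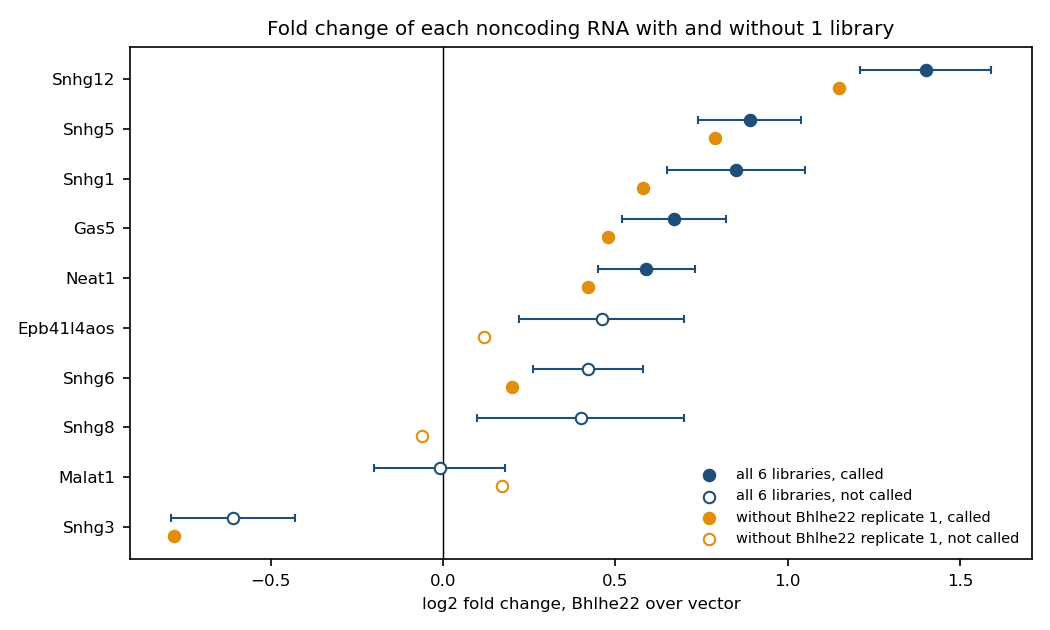
Log2 fold change of each RNA, Bhlhe22 over vector, with all 6 libraries (blue, bars ± SE) and without Bhlhe22 replicate 1 (orange), filled where edgeR's adjusted p is below 0.05. Snhg12 is farthest to the right at 1.40 and 1.15, Snhg3 farthest to the left at -0.61 and -0.78, and Snhg8 changes side, from 0.40 to -0.06.

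**Figure D3:**
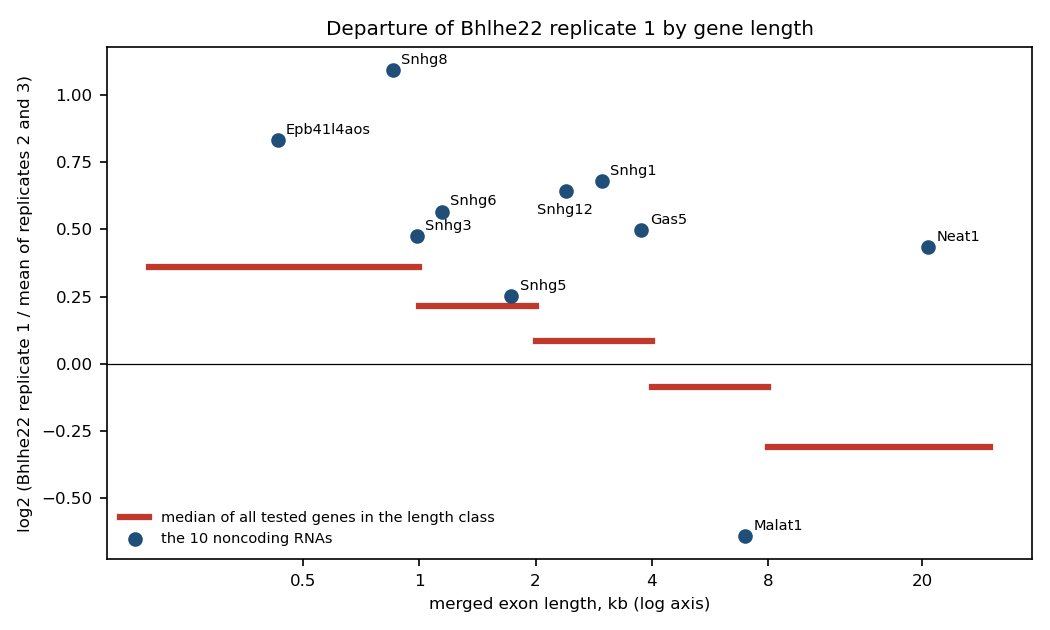
Log2 ratio of Bhlhe22 replicate 1 to the mean of Bhlhe22 replicates 2 and 3 against merged exon length in kb (log axis), for the 10 RNAs (points) and as the median of all tested genes in each length class (red lines). The class medians fall from 0.361 to -0.309 with length. Of the RNAs, 9 lie above the median of their class and Malat1 below it.

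The departure of Bhlhe22 replicate 1 was read against gene length because most of these RNAs are short. Of the 10, 9 lay above the median of their length class, as the plot of departure by length shows, and Malat1 lay below it. Neat1, with 20771 bases of exon, read high in that library where the class over 8 kb had a median of -0.309. The part of this library's departure in the fold changes was not tested beyond the fits without it and without the trend.

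Between RNAs, levels were compared per kb of merged exon. In vector cells Snhg6 and Malat1 were the most abundant, at 43.3 ± 1.94 and 40.3 ± 5.47 CPM per kb (SD, n = 3), and their ranges overlapped. Epb41l4aos (29.2 ± 1.76), Gas5 (28.8 ± 0.688), Snhg1 (26.8 ± 3.42) and Snhg8 (26.5 ± 1.11 CPM per kb) followed, and neighbours in this order overlapped. Below them came Snhg5 at 14.1 ± 2.00, Snhg3 at 7.73 ± 1.09, Snhg12 at 5.57 ± 0.314 and Neat1 at 3.30 ± 0.31 CPM per kb, each apart from its neighbours in this order. The value of Snhg5 is uncertain, since the row in the table has a longer model. The merged length joins the exons of every annotated transcript, and in Snhg1, Snhg8 and Snhg12 it spans the whole locus as 1 exon. The order between RNAs therefore depends in part on the annotation. In Bhlhe22 cells Snhg6 was first in each library, with a mean of 58.2 ± 14.0 CPM per kb. Snhg1 at 48.2 ± 13.9, Gas5 at 45.8 ± 9.97, Epb41l4aos at 40.3 ± 14.6, Malat1 at 29.2 to 47.2 and Snhg8 at 35.1 ± 16.8 CPM per kb overlapped in range, and their order turned on Bhlhe22 replicate 1. In replicates 2 and 3 Malat1, at 43.7 and 47.2 CPM per kb, was above Snhg1, at 39.7 and 40.7, and Gas5, at 43.5 and 37.1 CPM per kb. Snhg3 and Snhg12 changed places: Snhg3 lay at 6.60 to 8.77 and Snhg12 at 5.28 to 5.90 CPM per kb in vector cells. In Bhlhe22 cells Snhg3 lay at 4.36 to 6.26 CPM per kb, below all 3 libraries of Snhg12, which reached 19.4 CPM per kb. Neat1, at 4.96 ± 0.921 CPM per kb, overlapped Snhg3 in Bhlhe22 cells.

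The table also lists the snoRNAs inside the hosts as 30 rows of their own, 10 in Gas5, 8 in Snhg1, 5 in Snhg12, 2 each in Snhg3 and Snhg5, and 1 each in Snhg6, Snhg8 and Epb41l4aos. These rows held 996 counts over the 6 libraries against 92990 for the rows of all 10 RNAs. In M21 the snoRNA stretches of Gas5, Snhg1, Snhg5, Snhg8 and Snhg12, and part of Snora73a in Snhg3, lie inside merged host exons. Counts of these hosts can therefore include unspliced RNA. How reads in the shared stretches were divided between host and snoRNA rows is not known. In 16 of the 30 rows, those of Snord47, Gm25855, Snord50a and Snord99 printed above among them, the table gives exactly 1 count in each of the 6 libraries. Over the table that was so in 75 of 1507 snoRNA rows and in 327 of 55487 rows, 8 of them among 21936 protein-coding rows. Whether a 1 in such a row is a read or a minimum set in counting is not known, and no level was taken from them.

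At least 10 counts in total were found in 13 snoRNA rows, with 0 to 34 in a library. In Gas5 these were Gm22357, Gm50452, Snord80 and Gm25789, in Snhg1 Gm25894 and Gm24452, and in Snhg12 Snora16a and Snora44. Snord80 and Snora16a each have another, overlapping row with exactly 1 count in each library, counted separately among the 30. The others were Snora73a and Snora73b in Snhg3, Snord87 in Snhg6, Snora24 in Snhg8 and Gm23639 in Epb41l4aos. Snora24 had 25, 23 and 26 counts in vector and 17, 20 and 30 in Bhlhe22 cells, and Gm22357 had 28, 34 and 26 and then 25, 26 and 22. The groups overlapped in both. Of these rows 6 passed the filter and none was called by edgeR (adjusted p 0.18 to 0.85, log2 fold changes -0.61 to 0.12). The -0.61 belongs to Gm24452, with 19, 23 and 16 counts in vector and 1, 19 and 19 in Bhlhe22 cells, and rests on the single 1 in Bhlhe22 replicate 1. The difference between a host and its snoRNA rows was not tested.

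The genes nearest to the RNAs were read for comparison. Those described are protein-coding, passed the filter and lie within 10 kb. Slc3a2, the heavy chain of amino acid transporters, lies 106 bases from Snhg1 on the opposite strand. It was at 457, 442 and 460 CPM in vector and 806, 731 and 700 CPM in Bhlhe22 cells. All Bhlhe22 libraries were well above all vector libraries, with means of 453 ± 9.61 and 746 ± 54.3 CPM (SD, n = 3 each; log2 fold change 0.72, SE 0.08, edgeR adjusted p = 0.0011). Wdr74, a ribosome assembly factor 9384 bases from Snhg1, had a log2 fold change of 0.50 (edgeR adjusted p = 0.049). Prss12, a secreted serine protease whose gene lies 955 bases from Snhg8, was nearly silent, with 4, 0 and 4 counts in vector and 16, 15 and 25 in Bhlhe22 cells (log2 fold change 2.76 with an SE of 0.60, edgeR adjusted p = 0.02). Frmd8, 4224 bases from Neat1, was lower, with a log2 fold change of -0.27 (edgeR adjusted p = 0.036). Those not called were Zbtb37, which overlaps Gas5 on the other strand (-0.24, edgeR adjusted p = 0.53), Rcc1 (0.28, 0.074) and Phactr4 (-0.20, 0.26) beside Snhg3, and Trnau1ap, 739 bases from Snhg12 (0.07, 0.85). Slc3a2 was called without each single library, at edgeR adjusted p = 3.3e-05 to 0.012. Frmd8 was called only without Bhlhe22 replicate 1 (edgeR adjusted p = 0.015), and Wdr74 only without Bhlhe22 replicate 1 or 3 (0.014 and 0.018). Prss12 lost its call without vector replicate 1 or 3 (edgeR adjusted p = 0.053 and 0.066) and without Bhlhe22 replicate 3 (0.052). Rcc1 passed without Bhlhe22 replicate 1 (0.19, edgeR adjusted p = 0.044).

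The pathway around the RNAs was read from lists of related genes. Over all genes tested, with all 6 libraries, 10.4% were higher and 9.28% lower. Over these lists 27 genes were called, and 26 of them, all but Znhit6, were called in the same direction without Bhlhe22 replicate 1. Leaving that library out raised the share called over all genes from 19.6% to 31.3%, so keeping calls there is a weak check. Many of the 27 calls were lost when a vector library was left out, as given by list below. Among 22 other snoRNA host genes tested, 4 were higher, 1 was lower and 17 were not called, with a median log2 fold change of 0.17. The smallest p among those higher was that of Snhg16, at 17.2 ± 1.25 CPM in vector and 34.4 ± 4.97 CPM in Bhlhe22 cells (SD, n = 3 each; log2 fold change 1.00, edgeR adjusted p = 0.0023). Zfas1 went from 43.0 ± 1.91 to 77.7 ± 18.7 CPM (0.85, edgeR adjusted p = 0.013) and Snhg17 from 30.4 ± 0.818 to 43.2 ± 3.09 CPM (0.50, edgeR adjusted p = 0.0072). Snhg15, named after its values were seen, was also higher (0.55, edgeR adjusted p = 0.016). The gene that fell was Hspa8, a constitutive Hsp70 chaperone with snoRNAs in its introns, from 808 ± 6.50 to 418 ± 49.1 CPM (-0.95, edgeR adjusted p = 0.00089). The hosts that code for ribosomal or translation proteins, such as Rps3, Rpl13a, Rack1 and Eif4a1, were not called. Without vector replicate 2 or 3 the count higher was 2, and without Bhlhe22 replicate 1 it was 5, with 3 lower.

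The other long noncoding RNAs listed, 17 tested, were called higher in 2 and lower in 0, with a median log2 fold change of 0.03. At an unadjusted p under 0.05 edgeR had 5 higher and 5 lower. DESeq2 called 4 higher and 0 lower, and with the length and GC trend removed 2 were higher and 3 lower. Firre, a nuclear RNA from the X chromosome, went from 22.2 ± 1.15 to 32.4 ± 4.11 CPM (SD, n = 3 each; 0.54, edgeR adjusted p = 0.016), and Mir22hg, the host of a microRNA, from 30.9 ± 0.893 to 37.7 ± 0.948 CPM (0.29, edgeR adjusted p = 0.037). Neither was called when any vector library or Bhlhe22 replicate 2 was left out, and without Bhlhe22 replicate 1 there were 3 higher and 3 lower. Without Bhlhe22 replicate 3, 1 was lower. Over all 913 other long noncoding rows tested, 7.12% were higher and 3.50% lower, with a median log2 fold change of 0.00.

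Genes for proteins of the nuclear bodies that hold Neat1 and Malat1 were called in both directions. Calls in both directions were also the rule over all genes tested, with 10.4% higher and 9.28% lower. Of 19 paraspeckle genes 1 was higher and 4 were lower (median -0.07). Nono, a core paraspeckle protein, went from 343 ± 4.71 to 271 ± 11.8 CPM (SD, n = 3 each; -0.34, edgeR adjusted p = 0.012), while Taf15, an RNA-binding protein of the FET family, went from 83.6 ± 6.81 to 163 ± 46.6 CPM (0.96, edgeR adjusted p = 0.014). Rbm12 (-0.40, edgeR adjusted p = 0.014), the chromatin remodeller Smarca4 (-0.45, 0.015) and Tardbp (-0.36, 0.016), the last named after its values were seen, were lower. The count lower was 1 without vector replicate 1, 0 without vector replicate 2 or 3 and 2 without Bhlhe22 replicate 2, and Taf15 lost its call without vector replicate 2 or 3. Of 26 nuclear speckle and SR protein genes 2 were higher, the SR protein kinases Clk4 (0.50, edgeR adjusted p = 0.0038) and Srpk1 (0.25, 0.033). The splicing factors Srsf2 (-0.47, edgeR adjusted p = 0.005) and Srrm1 (-0.30, 0.028) were lower (median 0.04). Each direction had 1 call without any vector library or without Bhlhe22 replicate 2, and without Bhlhe22 replicate 1 there were 5 higher and 2 lower. Without Bhlhe22 replicate 3 the lower count was 1.

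Genes for the proteins that package snoRNAs were also called in both directions. Of 19 genes for core and assembly factors 4 were higher, 1 was lower and 14 were not called (median 0.04). The shares over all genes tested were 10.4% higher and 9.28% lower. Tcof1, the treacle protein of ribosomal gene transcription (0.34, edgeR adjusted p = 0.014), the assembly helicase Ruvbl2 (0.43, 0.029), the C/D core protein Nop58 (0.31, 0.046) and the assembly factor Znhit6 (0.38, 0.049; named after its values were seen) were higher, and the C/D core protein Snu13 (-0.44, 0.029) was lower. The counts turned on which library was left out. Leaving out vector replicate 1 or 2, or Bhlhe22 replicate 2, left 0 in either direction, leaving out vector replicate 3 left 1 higher and 0 lower, leaving out Bhlhe22 replicate 3 left 3 higher and 1 lower, and leaving out Bhlhe22 replicate 1 gave 4 higher and 6 lower. With the length and GC trend removed there were 4 higher and 6 lower.

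Of 19 nonsense-mediated decay genes 3 were higher, 1 was lower and 15 were not called (median 0.01), beside 10.4% higher and 9.28% lower over all genes. The endonuclease Smg6 went from 89.9 ± 0.671 to 148 ± 11.1 CPM (SD, n = 3 each; 0.72, edgeR adjusted p = 0.0011), Pnrc2, a link to decapping, from 124 ± 7.82 to 195 ± 1.18 CPM (0.65, edgeR adjusted p = 0.0012), and Smg9 had a log2 fold change of 0.32 (edgeR adjusted p = 0.025). The central helicase Upf1 fell from 128 ± 6.69 to 94.5 ± 6.54 CPM (-0.43, edgeR adjusted p = 0.011). The count higher was 2 without any vector library or without Bhlhe22 replicate 2. Leaving out vector replicate 3 gave 0 lower, and leaving out Bhlhe22 replicate 1 gave 2.

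Genes known for a 5′ TOP start were the last group read. Over all genes tested 10.4% were higher and 9.28% lower. Of 20 non-ribosomal TOP genes none was called by edgeR (median 0.07). At an unadjusted p under 0.05, 2 were higher and 2 lower, and DESeq2 called 1 in each direction. Of 80 ribosomal protein genes 1 was higher and 1 lower (median 0.15), Rpl12 from 48.4 ± 3.10 to 79.7 ± 10.5 CPM (SD, n = 3 each; 0.72, edgeR adjusted p = 0.0055) and Rpl27 from 36.8 ± 2.35 to 27.7 ± 3.52 CPM (-0.41, edgeR adjusted p = 0.044). Rpl27 lost its call without any one library other than Bhlhe22 replicate 1. Without that library there were 3 higher and 9 lower ribosomal protein genes, and 1 higher and 4 lower TOP genes. With the length and GC trend removed the balance was the other way, with 5 higher and 2 lower ribosomal protein genes and 2 higher and 1 lower TOP genes. The share of all genes called in either direction was 31.3% in the first of these fits and 28.0% in the other. Without Bhlhe22 replicate 3, 1 TOP gene was higher. The ribosomal protein genes had a median exon length of 1805 bases. Their rows differed widely in level, with vector means such as 2.11 ± 0.563 CPM for Rps29 and 2330 ± 29.9 CPM for Rpl4 (SD, n = 3 each). The reason was not tested, and the low rows may not give the full level of their genes.

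**Figure D4:**
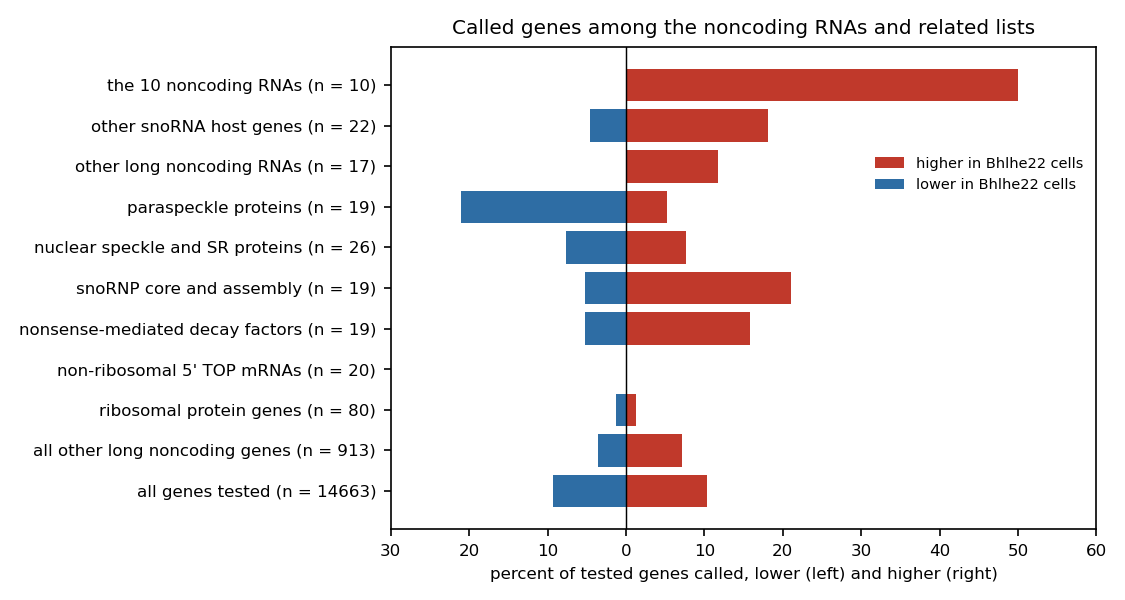
Percent of tested genes called by edgeR as higher (red, to the right) or lower (blue, to the left) in Bhlhe22 cells, for the 10 noncoding RNAs, 8 related lists, all other long noncoding rows and all 14663 genes tested. The 10 RNAs were called higher in 5 of 10 and lower in 0, beside 10.4% and 9.28% of all genes, and no non-ribosomal TOP gene was called.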

How the data were processed

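RNA of 6 RM-1 cell libraries was sequenced from total RNA with an NEB Ultra RNA kit, per the labels' protocols. The authors deposited 1 table with the unnormalized count of each gene and FPKM values computed from those counts. The submitters' processing notes name CASAVA 1.8, HISAT2 2.1.0, StringTie 1.3.4b, edgeR and the build GRCm38. The sources used here do not give strandedness, annotation release or selection of poly(A) RNA.

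Samples were grouped by genotype label. Counts were filtered with filterByExpr (at least 10, and 15 in total), scaled by TMM and compared by the robust quasi-likelihood test of edgeR 4.0.16 (R 4.3.3), which is two-sided. The fit was tested on simulated data. CPM values use TMM-scaled library sizes, and CPM per kb divides them by the merged exon length of GENCODE M21, which holds 55141 of the table's identifiers. Coordinates are those of the table unless M21 or RefSeq is named. Log2 fold changes are Bhlhe22 over vector, with p-values adjusted over all genes tested. With 15464709 to 25129552 counts per library, 3 counts correspond to 0.119 to 0.197 CPM.

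The 10 RNAs, the gene lists and the alternatives were chosen with earlier results of these data known. From each list up to 4 called genes with the smallest adjusted p are named, and beyond these a few that the text marks. Alternatives were RLE and library-size scaling, DESeq2 1.42.0, limma-voom and limma on log2(FPKM + 1) (limma 3.58.1), other filters, a replicate block, leaving out each library, and the length and GC trend removed by splines with 5 degrees of freedom. A few neighbouring and marker genes are not reported here.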

Additional observations from a re-analysis of the deposited data

How the results depend on the processing

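The number of the 10 RNAs called higher was 5 under every alternative that kept all 6 libraries, and 2 to 6 with 1 library left out. The number called lower rose from 0 to 1, Snhg3, under DESeq2, limma-voom, limma on log2(FPKM + 1), the replicate block and the removed length and GC trend, and was 0 to 1 with 1 library left out. Malat1 changed sign without vector replicate 3 (0.10), without Bhlhe22 replicate 1 (0.17) and with the length and GC trend removed (0.01), over a leave-one-out range of -0.14 to 0.17, and was called in none of these. Snhg8 changed sign without Bhlhe22 replicate 1 (-0.06; range with 1 library left out -0.06 to 0.63). The cause was not tested.

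Over all genes, with 1 library left out 715 to 2345 were higher and 633 to 2337 lower, and with the length and GC trend removed 2044 were higher and 2061 lower. With the replicate number as a block 1086 were higher and 993 lower. The libraries of the same number did not deviate together (correlations 0.029, 0.021 and 0.016 over genes), so the numbers were not taken as a pairing. Over all fits the median log2 fold change of all genes lay between -0.012, with library size scaling alone, and 0.013, without Bhlhe22 replicate 2 or 3. TMM and RLE scaling centre most genes near 0, so a small median is no check of them. Fits with 2 libraries in a group take the spread of that group from both groups. The snoRNA rows with at least 10 counts in total had 0 to 34 counts per library, so small differences in them were not detectable at this depth.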

Other observations

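The deposited FPKM values place these RNAs lower than their counts per kb of merged exon do. The length behind FPKM was recovered from counts and FPKM in genes with at least 100 counts in every library. In 10208 of 10426 such genes, 97.9%, it matched within 1% the sum of all distinct exons of all transcripts, in which overlapping exons are added again, and in 1363 genes it matched the merged exon length. The median ratio of this length to the merged one was 1.37 over these genes. It was higher for several hosts: 3.75 for Snhg1 (11131 against 2969 bases), 3.11 for Gas5 (11685 against 3760), 2.78 for Snhg12 and 11.6 for Snhg5 (20061 against 1730), but 1.24 for Malat1 and 1.23 for Neat1. Ratios of 1 gene between libraries do not depend on this length. Comparisons between genes do: the deposited FPKM of Gas5 is lower by that ratio than a value per merged kb. Values of log2(FPKM + 1) also depend on it, since a constant is added. In the fit on them the log2 fold change of Snhg5 was 0.54, against 0.89 in the main fit.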
